A study of Mus musculus with 4 samples.

Results

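The Hox genes of mBMSCs, bone marrow stromal cells of the mouse, are described here by their transcript levels with and without ZBP1. Members were the rows of the FPKM table (fragments per kilobase of a transcript, scaled to the mapped total of a sample) whose symbol is Hox followed by the letter a, b, c or d and a paralog number, which gave 39 of 24346 gene symbols. The rule reads gene names and no measured value, although it was set with earlier results of these data known. Primary mBMSCs came from the femoral marrow of 3-month-old wild-type C57BL/6 mice (C57BL/6J in the study's methods) and were transfected with a scrambled siRNA (siScr) or with siRNA targeting Zbp1, which encodes a Z-nucleic acid-binding sensor of the innate immune system, and RNA was collected 72 h later. Each group held 2 samples, both groups shared the strain, age, culture and transfection reagent, and the comparison asked which transcripts change when ZBP1 is depleted. The siRNA used for sequencing is not named in the sources used here, and nothing states that the replicates came from separate animals or cultures, so that p-values measure only the spread between these samples, which may be technical.

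Hox genes encode homeodomain transcription factors and lie in clusters named HoxA to HoxD, in which the order of the genes along the chromosome matches the order of their expression along the body axis. Paralogs with low numbers act in anterior regions, and paralogs with high numbers act in posterior regions and, for HoxA and HoxD, along the limb from shoulder or hip to digit. Adult mesenchymal cells retain part of this code, so that stromal cells of different bones differ in the Hox genes they transcribe, and Polycomb proteins keep the remaining Hox genes silent.

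Zbp1 was measured at 86.0 and 62.0 FPKM in siScr cells and at 11.5 and 11.6 FPKM in siZBP1 cells, with a log2 fold change of -2.56 (SE 0.16, limma adjusted p = 0.00322). Fold changes and tests come from limma on log2(FPKM + 1), with p-values adjusted over all 11959 genes whose mean FPKM reached 1, and a log2 fold change on this scale understates the change of genes with few FPKM. The table gives no read numbers. Steps between its smallest FPKM put the depth at roughly 10.4 to 19.8 M fragments, lowest in siZBP1 replicate 1. All 14 macrophage markers and all 14 mesenchymal markers listed were detected in every sample, and none of either list was at 0. The macrophage markers summed to 9027 and 10018 FPKM in siScr cells and to 14531 and 13812 FPKM in siZBP1 cells. The mesenchymal markers summed to 6335 and 5355 FPKM in siScr cells and to 3922 and 3974 FPKM in siZBP1 cells. Single genes weigh heavily in both sums. Col1a1 went from 3066 and 2520 FPKM in siScr cells to 1128 and 1191 FPKM in siZBP1 cells. Lyz2 went from 2814 and 3647 FPKM to 5871 and 5402 FPKM. Against its sum, the mesenchymal marker Nt5e went from 2.73 and 5.48 FPKM to 20.8 and 21.3 FPKM. Both sums separated the groups, and their part in the results on Hox genes was not tested. In such bulk RNA, fewer cells of a type, less RNA per cell and a change of single marker genes cannot be told apart.

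The sequences that belong to the results are those of the HoxA stretch with Hoxa10, Mir196b and Hoxa9, and of Hoxb4. On GRCm38 (mm10, the build of the deposited values), GENCODE places Hoxa9 at chr6:52223100-52231089 and Hoxa10 at chr6:52231197-52240854, both on the minus strand and 107 bases apart. The 250 bases before the start of the longest coding transcript of each gene whose level passed the test are shown 5′ to 3′ on the strand of the gene, as RefSeq gives them for GRCm38.p6, with CpG dinucleotides in capitals because Polycomb proteins occupy CpG-rich promoters. They are chr6:52227371-52227620 for Hoxa9, chr6:52234940-52235189 for Hoxa10 and chr11:96318017-96318266 for Hoxb4.
Hoxa9: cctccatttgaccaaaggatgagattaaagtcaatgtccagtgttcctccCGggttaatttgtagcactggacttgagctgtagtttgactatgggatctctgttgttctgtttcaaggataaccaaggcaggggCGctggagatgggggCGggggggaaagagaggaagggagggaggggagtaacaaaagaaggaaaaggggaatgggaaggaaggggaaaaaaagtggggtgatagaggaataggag
Hoxa10: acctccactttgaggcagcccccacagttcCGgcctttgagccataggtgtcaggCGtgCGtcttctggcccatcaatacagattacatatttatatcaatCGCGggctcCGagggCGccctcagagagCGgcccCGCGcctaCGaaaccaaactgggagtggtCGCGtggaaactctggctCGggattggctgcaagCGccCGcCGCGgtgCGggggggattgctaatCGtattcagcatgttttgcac
Hoxb4: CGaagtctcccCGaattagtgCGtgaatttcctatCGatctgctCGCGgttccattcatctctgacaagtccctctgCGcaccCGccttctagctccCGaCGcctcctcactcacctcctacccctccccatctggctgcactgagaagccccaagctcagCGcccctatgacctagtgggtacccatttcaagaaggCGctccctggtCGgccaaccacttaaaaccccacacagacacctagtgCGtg
The window of Hoxa9 holds 3 CpG and 49.6% G and C, against 20 CpG and 59.2% for Hoxa10 and 14 CpG and 58% for Hoxb4. Over the 32851 windows of all genes, the median was 6 CpG. None of these 3 windows holds a word of the Wnt response element that TCF/LEF factors bind (the word CTTTGAA, the word CTTTGAT, the word CTTTGTA or the word CTTTGTT, on either strand) or the PBX-HOX word TGATTNAT. Of all windows, 14.8% hold a Wnt response element word and 2.82% the PBX-HOX word. Among the 24 windows of the 22 Hox genes with an entry, 3 (Hoxa11, Hoxd8 and Hoxd12) hold the former and 2 (Hoxa2 and Hoxd11) the latter. Hoxa10 has another window, before its other coding start (chr6:52240855-52241104), with 7 CpG and 51.6% G and C. The CpG number given for Hoxa10 thus depends on the start chosen.

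Of the 39 Hox genes, 19 reached a mean FPKM of 1 and entered the test, 15 lay between 0 and 1, and 5 (Hoxb1, Hoxb13, Hoxd1, Hoxd12 and Hoxd13) were listed at 0 in all samples. HoxC was the most fully transcribed cluster, with 8 of 9 genes at a mean of at least 1, against 7 of 11 in HoxA, 3 of 10 in HoxB and 1 of 9 in HoxD. Even the highest Hox genes were modest, since the median over all genes tested was 11.6 to 11.9 FPKM per sample and only Hoxc10 exceeded it in every sample. Hoxc10, Hoxc6 and Hoxa10 together held 44.8% of the summed Hox FPKM. Hoxa3, Hoxa4 and Hoxc4 passed the filter although 1 group had a mean under 1. For 11 of the 39 genes, the values stood for roughly under 10 fragments in every sample.

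**Figure D1:**
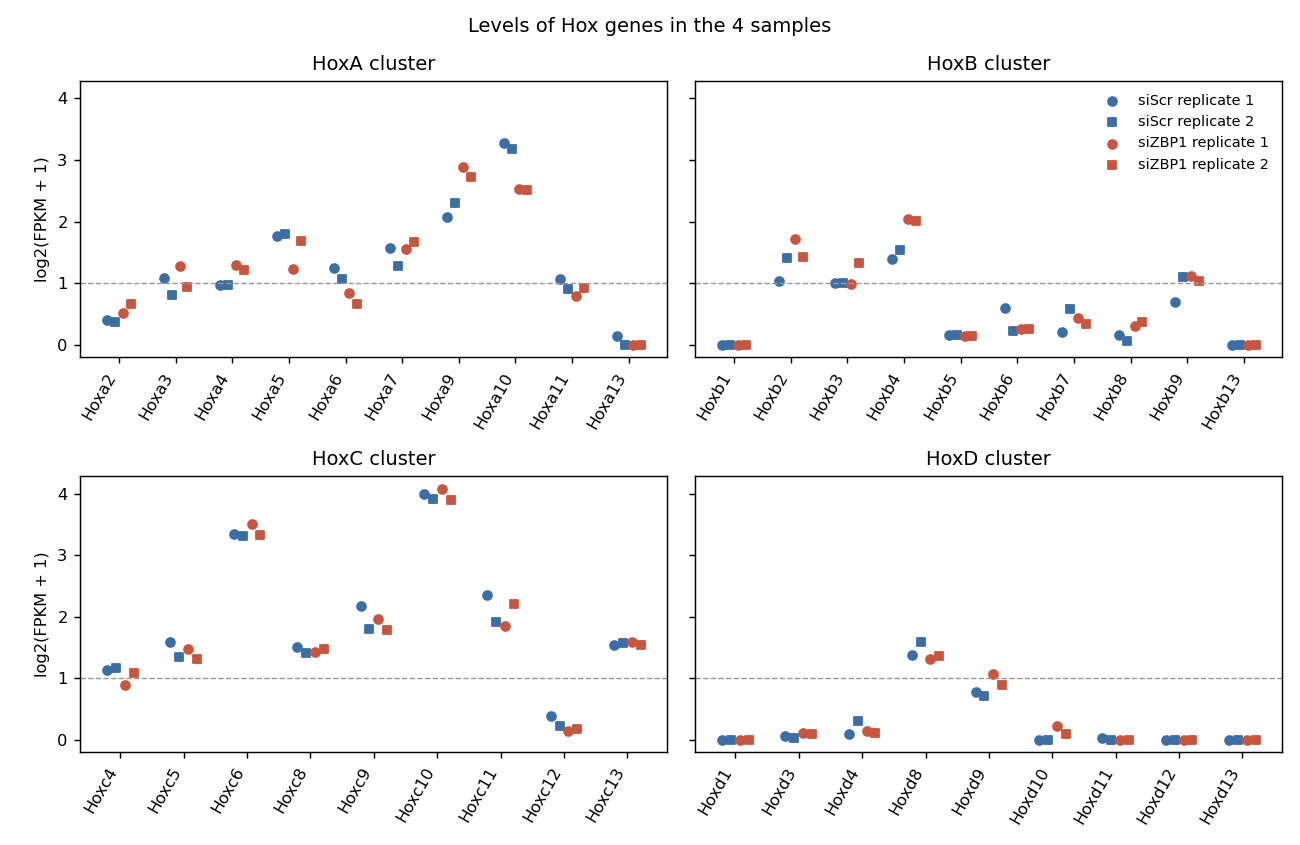
Level of Hox genes as log2(FPKM + 1) in the 4 samples, by cluster and paralog number, with siScr in blue, siZBP1 in red, replicate 1 as circles and replicate 2 as squares, and the dashed line at an FPKM of 1. Hoxc10 and Hoxc6 stand highest in every sample, and HoxD genes other than Hoxd8 and Hoxd9 lie near 0.

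Summed over HoxC, the level was 39.0 and 34.8 FPKM in siScr cells and 38.2 and 35.3 FPKM in siZBP1 cells. HoxA summed to 22.8 and 21.3 FPKM in siScr cells and to 21.3 and 21.1 FPKM in siZBP1 cells, so that the groups nearly touched. The HoxB genes summed to 5.18 and 6.54 FPKM in siScr cells and to 8.43 and 8.11 FPKM in siZBP1 cells, so that both siZBP1 samples lay above both siScr samples. Hoxb4, described below, is part of the HoxB sum. The HoxB share of the summed Hox FPKM was 8.68% in siScr cells and 12.0% in siZBP1 cells, whereas the HoxC share was 54.7% and 53.3%. HoxD gave 2.45 and 2.87 FPKM against 2.92 and 2.64 FPKM, and these ranges overlap, as do those of HoxC. With 2 samples against 2, an exact two-sided permutation test cannot give a p below 0.333, and the sums were not tested.

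**Figure D2:**
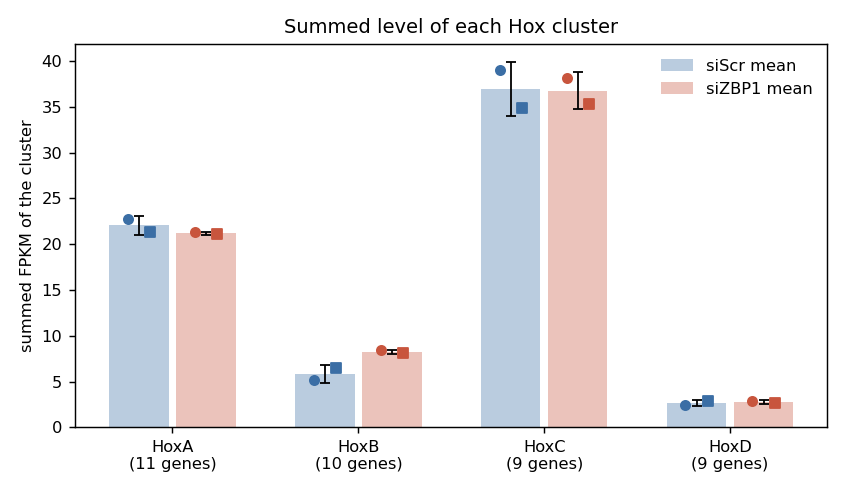
Summed FPKM of the genes of each Hox cluster, with bars at the group means, error bars of 1 SD (n = 2 per group) and a point per sample (circle for replicate 1, square for replicate 2). Both siZBP1 samples lie above both siScr samples in HoxB, at 8.43 and 8.11 FPKM against 5.18 and 6.54 FPKM, and the groups overlap in HoxC and HoxD.

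Of the 19 Hox genes tested, Hoxa10 fell, Hoxa9 and Hoxb4 rose, and 16 did not pass the limma threshold of an adjusted p of 0.05. Over all 11959 genes, 14.8% fell and 13.5% rose. The 1 lower and 2 higher Hox genes make 15.8% of the 19, a share that covers both directions. Hox genes thus passed less often than all genes did, a difference that rests on few genes and was not tested. Over these 19 genes the median log2 fold change was 0.03, and that of all genes tested was 0.0045. The groups did not overlap for 5 Hox genes that were higher and 4 that were lower in siZBP1 cells, whereas such separation in either direction was found for 68.4% of all genes tested.

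Hoxa10, a posterior gene that patterns the upper segment of the limb and also acts in osteoblast and blood progenitors, was measured at 8.64 and 8.04 FPKM in siScr cells and at 4.76 and 4.70 FPKM in siZBP1 cells. Both siZBP1 samples lay below both siScr samples and differed from each other by less than the siScr samples did. The group means were 8.34 ± 0.428 and 4.73 ± 0.0452 FPKM (SD, n = 2), and the log2 fold change was -0.70 (SE 0.076, 95% interval -0.90 to -0.50, limma adjusted p = 0.00731). Hoxa10 has 4 annotated transcripts, 2 of them coding and with separate starts, and the gene-level values do not tell them apart. None of its exons overlaps an exon of another gene.

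Hoxa9, which lies next to it and is known for its part in blood progenitors and in the patterning of the axial skeleton, was measured at 3.20 and 3.91 FPKM in siScr cells and at 6.40 and 5.58 FPKM in siZBP1 cells. The groups did not overlap. Their means were 3.55 ± 0.502 and 5.99 ± 0.578 FPKM (SD, n = 2), with a log2 fold change of 0.62 (SE 0.12, 95% interval 0.30 to 0.94, limma adjusted p = 0.0253). In siScr cells Hoxa9 stood below Hoxa10, and in siZBP1 cells above it. The ratio of Hoxa9 to Hoxa10 within a sample was 0.370 and 0.486 in siScr cells and 1.34 and 1.19 in siZBP1 cells. Both genes passed the test in opposite directions, so that this ratio is not a result apart from them.

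Hoxb4, an anterior gene studied as a factor that expands blood stem cells, lies at chr11:96318267-96321638 on the plus strand and has a single annotated transcript of 2 exons. It was measured at 1.62 and 1.91 FPKM in siScr cells and at 3.13 and 3.02 FPKM in siZBP1 cells. Both siZBP1 samples exceeded both siScr samples, with means of 1.77 ± 0.207 and 3.07 ± 0.0769 FPKM (SD, n = 2) and a log2 fold change of 0.56 (SE 0.11, 95% interval 0.27 to 0.85, limma adjusted p = 0.0264). Its paralog Hoxc4 went from 1.18 and 1.24 FPKM to 0.862 and 1.12 FPKM, which did not pass the test (limma adjusted p = 0.459). The ratio of Hoxb4 to Hoxc4 within a sample was 1.37 and 1.55 in siScr cells and 3.63 and 2.69 in siZBP1 cells, and it is not a result apart from Hoxb4.

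These 3 calls depend on single libraries. Without siScr replicate 1, Hoxa10 alone passed, and the limma adjusted p was 0.0910 for Hoxa9 and 0.0696 for Hoxb4. Without siZBP1 replicate 1 or 2, none of the 3 passed, with adjusted p-values of 0.0969 and 0.0863 for Hoxa10, 0.164 and 0.110 for Hoxa9, and 0.145 and 0.122 for Hoxb4. The log2 fold changes kept their direction, at -0.75 to -0.66 for Hoxa10, 0.51 to 0.73 for Hoxa9 and 0.48 to 0.64 for Hoxb4. In those fits without siZBP1 replicate 1 or 2, only 23 and 38 of all 11959 genes were lower and 22 and 22 higher, and Zbp1 itself did not pass (limma adjusted p = 0.0748 and 0.0654).

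**Figure D3:**
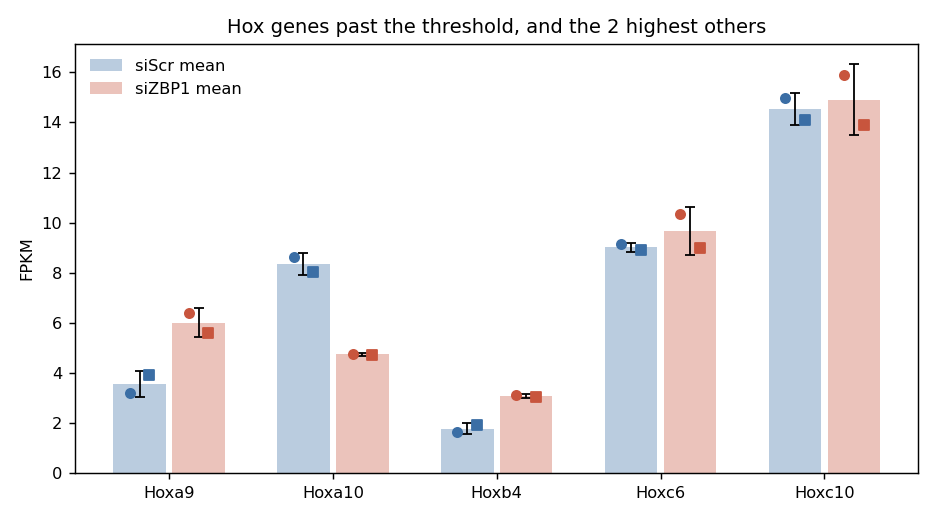
FPKM of the 3 Hox genes past the threshold and of Hoxc6 and Hoxc10, with bars at the group means, error bars of 1 SD (n = 2 per group) and a point per sample (circle for replicate 1, square for replicate 2). Hoxa9 stands below Hoxa10 in siScr cells and above it in siZBP1 cells, and the points of both groups overlap for Hoxc6 and Hoxc10.

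Hoxc10 and Hoxc6, the highest Hox genes, did not pass the test. Hoxc10, a gene of hindlimb and lumbar regions at chr15:102966796-102971893, was measured at 15.0 and 14.1 FPKM in siScr cells and at 15.9 and 13.9 FPKM in siZBP1 cells. Its log2 fold change was 0.03 (SE 0.083, 95% interval -0.19 to 0.25, limma adjusted p = 0.805), and the groups overlapped. The ratio of Hoxa10 to its paralog Hoxc10 was 0.577 and 0.571 in siScr cells and 0.300 and 0.338 in siZBP1 cells, which is not a result apart from Hoxa10. Hoxc6, a gene of the thoracic region, was measured at 9.14 and 8.89 FPKM in siScr cells and at 10.3 and 8.98 FPKM in siZBP1 cells, with a log2 fold change of 0.09 (SE 0.086, 95% interval -0.14 to 0.31, limma adjusted p = 0.498). Annotated exons of Hoxc5 and Hoxc10 overlap on the same strand, so that fragments there could be counted for either.

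None of the 8 HoxC genes tested passed, and their log2 fold changes ran from -0.15 to 0.09. The posterior gene Hoxc11 was measured at 4.08 and 2.79 FPKM in siScr cells and at 2.59 and 3.59 FPKM in siZBP1 cells. Hoxc9, of the thoracic region, gave 3.54 and 2.48 FPKM against 2.91 and 2.45 FPKM. The group means were 3.43 and 3.09 FPKM for Hoxc11 and 3.01 and 2.68 FPKM for Hoxc9. For both genes these means lay closer together than the replicates of either group. Hoxc13, known for its role in hair and nails, gave 1.92 and 1.98 FPKM against 2.02 and 1.89 FPKM. Hoxc8 was measured at 1.84 and 1.67 FPKM in siScr cells and at 1.69 and 1.78 FPKM in siZBP1 cells. Their ranges overlap, as do those of Hoxc5, at 2.02 and 1.54 FPKM against 1.78 and 1.49 FPKM.

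Apart from Hoxa9 and Hoxa10, the 5 HoxA genes tested did not pass. Hoxa4 was measured at 0.947 and 0.964 FPKM in siScr cells and at 1.46 and 1.32 FPKM in siZBP1 cells, without overlap (limma adjusted p = 0.156), and it passed when the variance trend was left out. Hoxa5, which acts in lung and in the cervical and thoracic skeleton, had 2.42 and 2.46 FPKM against 1.34 and 2.22 FPKM, with both siZBP1 samples lower and siZBP1 replicate 2 close to the siScr samples. Hoxa3, required for thymus and parathyroid, was measured at 1.11 and 0.740 FPKM in siScr cells and at 1.41 and 0.912 FPKM in siZBP1 cells, and its groups overlapped. Hoxa7 gave 1.95 and 1.42 FPKM against 1.93 and 2.17 FPKM, also with overlap.

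Hoxb2, which patterns the hindbrain, was measured at 1.05 and 1.66 FPKM in siScr cells and at 2.27 and 1.67 FPKM in siZBP1 cells. Hoxb3 gave 0.998 and 1.00 FPKM against 0.988 and 1.51 FPKM. Neither passed (limma adjusted p = 0.256 and 0.520), so that Hoxb4 was the HoxB gene that did. Hoxd8, the HoxD gene tested, gave 1.59 and 1.99 FPKM against 1.48 and 1.57 FPKM (limma adjusted p = 0.469).

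**Figure D4:**
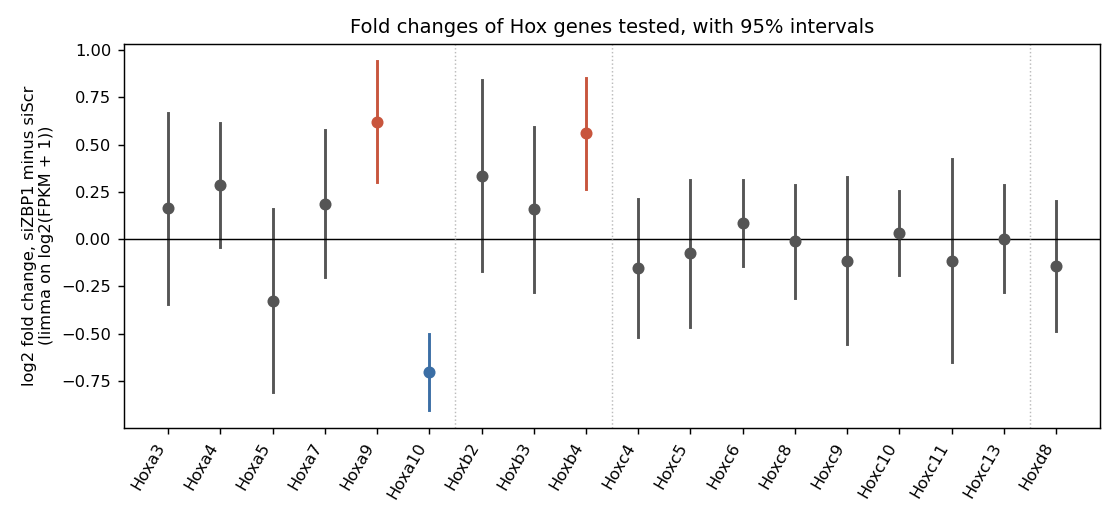
Log2 fold change of Hox genes tested, siZBP1 minus siScr by limma on log2(FPKM + 1), with 95% intervals and dotted lines between clusters, in blue for lower, red for higher and grey for genes that did not pass. Hoxa10 at -0.70, Hoxa9 at 0.62 and Hoxb4 at 0.56 passed, and the 8 HoxC genes lie between -0.15 and 0.09.

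The low Hox genes carried the larger ratios. Among the 31 Hox genes with both group means above 0, 5 were over 1.5-fold lower (Hoxa6, Hoxa10, Hoxb6, Hoxc12 and Hoxd4) and 5 over 1.5-fold higher (Hoxa2, Hoxa9, Hoxb4, Hoxb8 and Hoxd3) by the ratio of the group means, against 13.8% lower and 10.7% higher of the 16281 genes in the table with both means above 0. Of these, 4 of the lower and 3 of the higher genes had a mean FPKM under 1 and entered no test here, and none of them passed when the filter was left out. Hoxa6 had 1.36 and 1.09 FPKM in siScr cells and 0.793 and 0.587 FPKM in siZBP1 cells, which are apart. Hoxa2 gave 0.313 and 0.287 FPKM against 0.434 and 0.575 FPKM, and Hoxb8, a gene used to immortalise myeloid progenitors, gave 0.113 and 0.0417 FPKM against 0.240 and 0.295 FPKM. The values of Hoxb8 stood for 2.18 to 14.0 fragments per sample by the rough depth estimate, too few for a statement on direction. The same holds for Hoxd3 (0.875 to 3.66 fragments), Hoxc12 (1.15 to 4.48), Hoxd4 (2.61 to 11.7) and Hoxb6 (4.02 to 14.4). For Hoxd4 and Hoxb6 the groups also overlapped. Hoxa6 (7.19 to 18.9 fragments) and Hoxa2 (7.88 to 18.4) rested on few fragments as well, and no counting error was computed for them. With each sample left out in turn, 4 to 5 Hox genes were over 1.5-fold lower and 6 to 8 over 1.5-fold higher, with 8 higher without siScr replicate 2 or siZBP1 replicate 2.

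Apart from Hoxc13, the genes of paralog groups 12 and 13 were at or near 0. Hoxa13, which patterns the digits, was listed above 0 in siScr replicate 1 alone, at 0.106 FPKM, and Hoxb13, Hoxd12 and Hoxd13 were listed at 0. Hoxa11, which patterns the lower segment of the limb, was measured at 1.09 and 0.864 FPKM in siScr cells and at 0.726 and 0.889 FPKM in siZBP1 cells. By paralog number, group 10 (Hoxa10, Hoxc10 and Hoxd10) had the highest sum, at 23.6 and 22.1 FPKM in siScr cells and 20.8 and 18.7 FPKM in siZBP1 cells. Group 9 summed to 8.06 and 8.16 FPKM against 11.6 and 9.94 FPKM, and group 4 to 3.82 and 4.34 FPKM against 5.55 and 5.54 FPKM. The sums of groups 10, 9 and 4 include Hoxa10, Hoxa9 and Hoxb4, so that they are not results apart from these genes. Group 13 gave 2.03 and 1.98 FPKM against 2.02 and 1.89 FPKM, nearly all of it from Hoxc13.

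Between the coding parts of Hoxa9 and Hoxa10 lies Mir196b, the hairpin of miR-196b, a microRNA that targets Hox transcripts. It was listed at 0 in both siScr samples and at 83.4 and 51.3 FPKM in siZBP1 samples. It passed the filter only through the siZBP1 samples, and its test is not used here. The gene covers the 85 bases chr6:52230081-52230165 on the minus strand, within exons of 2 of the 5 Hoxa9 transcripts (both noncoding), so that its fragments and those of Hoxa9 cannot be told apart. The libraries were made from purified mRNA, and the value is of fragments over the hairpin, not of the mature microRNA. Over so short a gene few fragments give a high FPKM, and a listed 0 may stand for no estimate: Mir615, within HoxC, was listed at 0 and 11.3 FPKM in siScr cells and at 0 and 13.6 FPKM in siZBP1 cells.

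The mature microRNA is shown with that of miR-196a, which comes from HoxB and HoxC, since both have the same seed (bases 2 to 8, in capitals, RefSeq sequence). Mir196a-1 and Mir196a-2 were listed at 0 in all samples, as were Mir10a and Mir10b of HoxB and HoxD.
miR-196b-5p: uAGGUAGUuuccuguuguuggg
miR-196a-5p: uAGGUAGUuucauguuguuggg
The match to this seed, ACTACCT, occurs in the annotated 3′ UTR of 8 of 38 Hox genes (Hoxa4, Hoxa5, Hoxa7, Hoxa9, Hoxb1, Hoxb6, Hoxb7 and Hoxc8) and in 6.20% of 20549 genes. Of these 8, Hoxa9 rose, Hoxa4, Hoxa5, Hoxa7 and Hoxc8 did not pass the test, and the others were not tested. The sites of Hoxa9 (chr6:52223900-52223921) and the last of 4 in Hoxa7 (chr6:52215210-52215231), both on the minus strand, are shown with the seed match in capitals.
Hoxa9 site: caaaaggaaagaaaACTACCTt
Hoxa7 site: actactagccctaaACTACCTa
Outside and inside the seed together, the Hoxa9 site matches miR-196b at 15 of 22 bases and the Hoxa7 site at 14. The match to the miR-10 seed, ACAGGGT, occurs in 4 of 38 Hox genes and in 12.6% of all genes.

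Of the other transcripts within the clusters, Hotairm1, a long noncoding RNA of HoxA, rose from 14.4 and 14.2 FPKM to 16.6 and 17.6 FPKM (log2 fold change 0.24, limma adjusted p = 0.0408). It did not pass with any 1 of the 4 samples left out (limma adjusted p = 0.114 to 0.204), without a variance trend or with no filter. Its level lay near that of Hoxc10. Hotair, the noncoding RNA of HoxC, was at 0.241 and 0.183 FPKM in siScr cells and 0.0858 and 0.134 FPKM in siZBP1 cells. Among the 39 Hox genes, 10 overlap exons of a gene on the opposite strand, 9 on the same strand, and 23 neither. The strand setting of the counting is not given in the sources used here, so that fragments of overlapping genes cannot be told apart. Of 9 tested genes at the ends of the clusters, 2 rose, Skap2 beside HoxA (72.4 and 83.0 against 99.4 and 101 FPKM, log2 fold change 0.37, limma adjusted p = 0.0275) and Calcoco1 beside HoxC (14.5 and 13.8 against 18.7 and 18.0 FPKM, log2 fold change 0.35, limma adjusted p = 0.0163). Their median was 0.17, and 13.5% of all genes tested rose. Without siScr replicate 1 or 2, 1 of the cluster-end genes passed, and without either siZBP1 replicate none did.

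Of the TALE cofactors, homeodomain proteins that bind DNA together with Hox proteins, 2 of 7 tested fell and none rose, against 14.8% lower and 13.5% higher over all genes tested, and their median log2 fold change was -0.05. Meis2 went from 2.63 and 2.67 FPKM to 1.78 and 1.75 FPKM (log2 fold change -0.40, limma adjusted p = 0.0469). Without siScr replicate 1 or either siZBP1 replicate, no cofactor passed, and without siScr replicate 2, 1 did.

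Of 17 Polycomb genes, which keep Hox genes silent, 2 fell and 1 rose, with a median of -0.04, against 14.8% lower and 13.5% higher over all genes tested. Cbx2 (1.51 and 1.42 against 0.612 and 0.842 FPKM) reached a mean of 1 only in siScr cells. It did not pass, and it is part of the median. Jarid2, a subunit that guides the complex that methylates histone H3 at lysine 27, rose from 3.67 and 3.45 FPKM to 5.88 and 5.32 FPKM (log2 fold change 0.53, limma adjusted p = 0.0189). Bmi1 and Phc3, of the complex that marks histone H2A, fell with log2 fold changes of -0.31 and -0.28 (limma adjusted p = 0.0184 and 0.0296). Of 9 Trithorax genes and H3K27 demethylases, which keep Hox genes active, Wdr5 fell and Kdm6a rose, with log2 fold changes of -0.26 and 0.27 (limma adjusted p = 0.0482 and 0.0458). None of the Trithorax list passed without any 1 of the 4 samples, and of the Polycomb list 1 gene passed without siScr replicate 2 and none without another.

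Of the retinoic acid pathway, which induces anterior Hox genes, 5 of 10 genes tested fell and none rose, with a median log2 fold change of -0.45, against 14.8% lower and a median of 0.0045 over all genes. Cyp26b1, which degrades retinoic acid, fell from 11.1 and 7.37 FPKM to 2.69 and 2.58 FPKM (log2 fold change -1.47, limma adjusted p = 0.0103). Aldh1a2, which makes retinoic acid, fell from 5.69 and 3.96 FPKM to 1.62 and 1.79 FPKM (log2 fold change -1.09, limma adjusted p = 0.0155). The other synthesis enzymes tested, Aldh1a3 and Rdh10, did not pass. Aldh1a3 (1.55 and 2.15 against 1.02 and 0.839 FPKM) reached a mean of 1 only in siScr cells, and it is part of the median. Crabp2, which carries retinoic acid to its receptors, fell with a log2 fold change of -1.08 (limma adjusted p = 0.0327), and the receptors Rarg and Rara fell by 0.90 and 0.35 on the log2 scale. Without either siScr replicate 4 of these genes passed, and without either siZBP1 replicate none did.

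Of other transcription factors of limb, trunk and head position, 7 of 14 tested fell and none rose, against 14.8% lower and 13.5% higher over all genes tested. Their median log2 fold change was -0.58, and their difference from the Hox genes was not tested. Dlx6, counted among the 7, and Msx2 (1.19 and 1.64 against 0.808 and 0.670 FPKM) entered the 14 only through the siScr samples. Dlx5, which drives osteoblast and jaw development, fell from 12.6 and 7.91 FPKM to 3.31 and 3.09 FPKM (log2 fold change -1.39, limma adjusted p = 0.0147). Prrx2, a factor of limb mesenchyme, fell from 40.7 and 29.3 FPKM to 14.1 and 13.9 FPKM (log2 fold change -1.24, limma adjusted p = 0.00999). Dlx6, which passed the filter only through the siScr samples (3.26 and 2.60 against 0.859 and 0.664 FPKM), fell by 1.16, Irx3 by 1.10, Prrx1 by 1.00, the hindlimb factor Pitx1 by 0.67 and Tbx15 by 0.55 on the log2 scale. Their summed level was 217 and 172 FPKM in siScr cells and 110 and 113 FPKM in siZBP1 cells. Without siScr replicate 1, 5 of these genes passed, and without either siZBP1 replicate none did. The ParaHox list (Cdx, Gsx and Pdx1) had no gene to test, with Cdx1 at up to 0.0579 FPKM and the others listed at 0.

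The cell type markers differed between the same samples. Of 13 mesenchymal markers tested, 5 fell and 1 rose, with a median log2 fold change of -0.35, against 14.8% lower and 13.5% higher over all genes tested. The largest changes were those of Cxcl12 (-2.81, limma adjusted p = 0.0021), a niche chemokine, Nt5e (2.16, limma adjusted p = 0.00954), which encodes the surface enzyme CD73, and Col1a1 (-1.26, limma adjusted p = 0.0048). Of 14 macrophage markers, 10 rose and none fell, with a median of 0.33, led by Mrc1 (1.25, limma adjusted p = 0.00789), Lyz2 (0.81, limma adjusted p = 0.0191) and C1qa (0.74, limma adjusted p = 0.0036). Of the other haematopoietic markers, Cd4 rose among 3 tested (log2 fold change 0.47, limma adjusted p = 0.019). It did not pass with any 1 of the 4 samples left out (log2 fold change 0.439 to 0.501). Pf4, the highest marker of this list, had means of 30.5 FPKM in siScr cells and 40.7 FPKM in siZBP1 cells. Its groups did not overlap, but it did not pass (log2 fold change 0.42, limma adjusted p = 0.0742), nor did S100a8. Elane, Mpo, S100a9 and Hbb-bs were listed at 0. Neither of 2 endothelial markers tested passed, and Vwf, the highest, was at 4.36 and 5.41 FPKM against 4.63 and 4.48 FPKM. Without either siZBP1 replicate, no macrophage or mesenchymal marker passed.

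**Figure D5:**
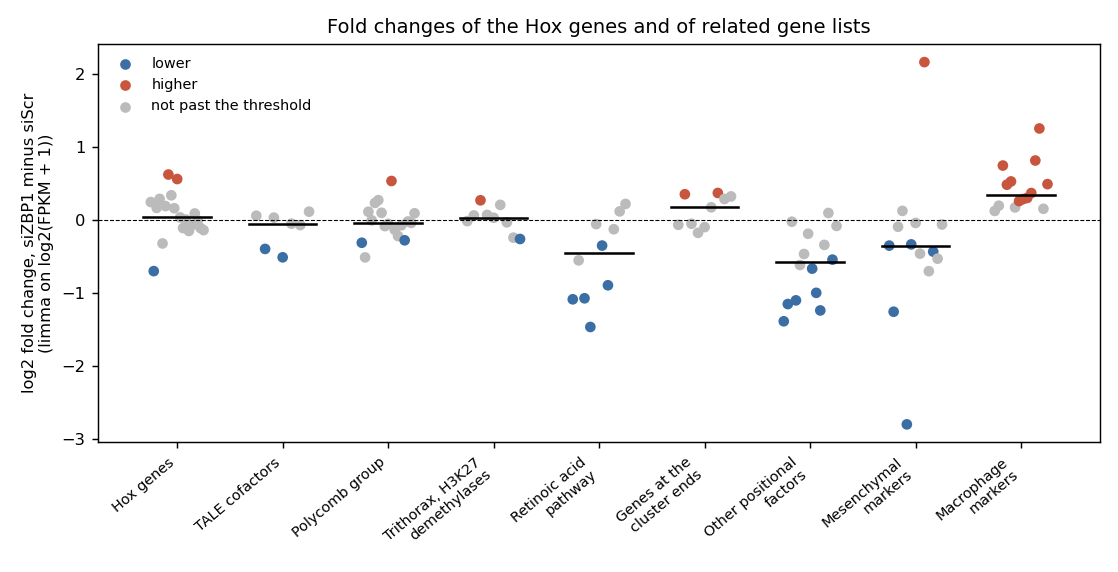
Log2 fold change (siZBP1 minus siScr, limma on log2(FPKM + 1)) of the tested Hox genes and of the tested genes of 8 lists, with 1 point per gene, a black bar at each median, and blue for lower, red for higher and grey for not past the threshold. The Hox median is 0.03, while the medians of the retinoic acid list, at -0.45, and of the other positional factors, at -0.58, lie below 0.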

How the data were processed

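RNA-seq was analysed for 4 samples of mBMSCs, 2 siScr and 2 siZBP1, grouped by the sample titles. The authors deposited FPKM values per gene symbol and sample, together with the mean FPKM of each group, which equals the mean of the replicates. Per the methods, libraries were made with the TruSeq RNA kit, reads were mapped with Tophat, and FPKM were extracted with HTSeq. By contrast, the submitters' processing notes list TopHat, Cufflinks and mm10. The annotation, filters and strand setting are not given in the sources used here. All per-sample columns were used. A spreadsheet had turned 27 symbols into dates, none of them a Hox gene.

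Genes that reached a mean FPKM of 1 were tested with limma (version 3.58.1, R 4.3.3) on log2(FPKM + 1) with a variance trend, two-sided, with Benjamini-Hochberg adjustment over 11959 genes and a threshold of 0.05. The script was tested on simulated data. Ratios of group means were counted over 1.5-fold. Depth came from the spacing of the lowest FPKM values and is rough, fragment numbers assume the longest coding transcript, and no counting error was computed. Gene models and 3′ UTRs of at least 50 bases (longest coding transcript) came from GENCODE M21 on GRCm38, and promoters and microRNAs from RefSeq (GRCm38.p6). Python 3.11.15 with numpy 2.4.6, pandas 2.3.3 and matplotlib 3.10.9 was used. The replicate numbers showed no sign of pairing the samples, and the main test used no pairing. Alternatives changed the pseudocount, filter, scaling, variance model, genes, block and samples.

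Hox genes that passed the filter are given by sample, with full statistics for those past the threshold and the 3 highest. Of each gene list, the 3 genes with the largest change past the threshold are named, or the highest gene where none passed. Some genes that this rule names are not reported here, and other genes named were chosen after their values were seen. The members and lists were chosen with earlier results of these data known.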

Additional observations from a re-analysis of the deposited data

How the results depend on the processing

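Hoxa10, Hoxa9 and Hoxb4 were the Hox genes past the limma threshold with pseudocounts of 0.1 and 0.5, a filter at a mean FPKM of at least 0.5, no filter, quantile normalization, median-of-ratios scaling, a robust variance trend and without small RNA genes. Without a variance trend Hoxa4 passed as well (adjusted p = 0.042). With a filter at a mean FPKM of at least 5, 3 Hox genes were tested, 1 was lower and 0 were higher, since Hoxa9 and Hoxb4 were no longer tested. With each sample left out in turn, 0 to 1 Hox genes were lower and 0 to 2 higher, and the median log2 fold change ran from -0.0045 to 0.099. In the fits that leave 1 sample in a group, that sample is assumed to vary like the pair of the other group. By the ratio of means, a filter at a mean FPKM of at least 1 left 1 gene over 1.5-fold lower and 2 higher, and 1 FPKM added to each mean left 1 lower and 1 higher. With each sample left out in turn, 4 to 5 were lower and 6 to 8 higher. The replicate numbers gave a correlation of deviations of -0.063 between the groups, which shows no sign of pairing by number. Whether samples shared an animal, culture or batch was not tested. With a replicate block, 1654 genes were lower and 1465 higher, the same 3 Hox genes passed, with a median of 0.03 over the 19, and Meis2, Phc3, Kdm6a, Wdr5 and Hotairm1 did not pass. With no filter 34 Hox genes were tested, and depth limits the 15 of them with a mean FPKM under 1.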
